A study of Mus musculus with 6 samples.

Results

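The transforming growth factor beta (TGF-beta) pathway was followed through 9 genes in macrophages sorted from mouse tumours. They are the ligand genes Tgfb1, Tgfb2 and Tgfb3, the receptor genes Tgfbr1 and Tgfbr2, the signal carrier Smad3, the feedback inhibitors Smad7 and Skil, and Tgfbi, a matrix protein gene induced by the pathway. They were chosen by symbol for their place in the pathway, with earlier results of these data known. All 9 were found among the 21760 gene symbols measured. MC38 is a mouse colon carcinoma line, and Xkr8 is a scramblase that caspases switch on in dying cells to bring phosphatidylserine to the surface. The macrophages came from MC38 tumours of Xkr8 knockout (KO) clone 1 (2 libraries) or KO clone 2 (2 libraries), or from wild type (WT) MC38 tumours (2 libraries). Each KO group stands for 1 tumour cell clone, and each library comes from its own mouse. All tumours grew under the skin of C57BL6 mice for 16 days with nothing further given, and the labels name no knockout in the host.

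TGF-beta is secreted in a latent form and acts once it is released from its latency peptide. The active ligand joins the type II receptor (Tgfbr2) to the type I receptor (Tgfbr1), which phosphorylates Smad2 and Smad3, and these enter the nucleus with Smad4. Smad7 and Skil are induced by the signal and restrain it, and in macrophages the pathway is known for damping inflammatory activation.

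Library totals ran from 20038047 to 40022755 estimated reads. WT mouse 2 was unlike the remaining 5 libraries, with the lowest total and with 24.6% of it in the ribosomal precursor Rn45s, a share that ran from 1.46% to 7.12% elsewhere. The 9 genes and the named genes of the wider pathway are therefore also compared with WT without it. With either WT library left out, the WT group is 1 library, which is then assumed to vary like the KO libraries, and they alone supply the SE and p. Levels below are CPM, read counts scaled to library size. The macrophage genes Adgre1 (528 to 966 CPM) and Csf1r (1059 to 1633 CPM) were abundant in all libraries. Xkr8 stood at 4.70, 4.14, 6.97 and 6.16 CPM in macrophages of KO tumours, against 6.90 and 6.05 CPM in those of WT tumours, which does not check labels that describe the tumour cells.

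None of the 9 genes passed an adjusted p of 0.05 between macrophages of KO and WT tumours. Smad7, an inhibitor of the receptor, averaged 41.0 ± 2.38 CPM with KO tumours and 69.9 ± 23.8 CPM with WT tumours (SD, n = 4 and 2), and every KO library was below both WT libraries. Skil, a repressor of Smad target genes, averaged 387 ± 43.6 CPM with KO tumours and 268 ± 3.15 CPM with WT tumours, and every KO library was above both. Tgfb3 was below both WT libraries in every KO library. In such sorted bulk samples, fewer cells of a type and less RNA per cell cannot be told apart.

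The test was edgeR's quasi-likelihood test over 15560 genes, of which 0.135% passed (0.129% higher with KO and 0.00643% lower). At an unadjusted p under 0.05 the count was 2 of the 9 genes, Smad7 and Skil (22.2%), beside 13.6% of all genes. DESeq2 called 0 of the 9, beside 3.21% of all genes. KO and WT libraries did not overlap for 3 of the 9 (33.3%), beside 23.6% of all genes, with 1 higher in KO beside 12.9% and 2 lower beside 10.7%. As 1 gene is 11.1% of the list, the counts in both directions together lay within 1 gene of the background. The median log2(KO/WT) of the 9 genes was 0.09, with 5 positive and 4 negative, beside 0.00 over all genes. The median without WT mouse 2 was 0.22, with 7 positive and 2 negative, beside -0.01 over all genes.

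**Figure D1:**
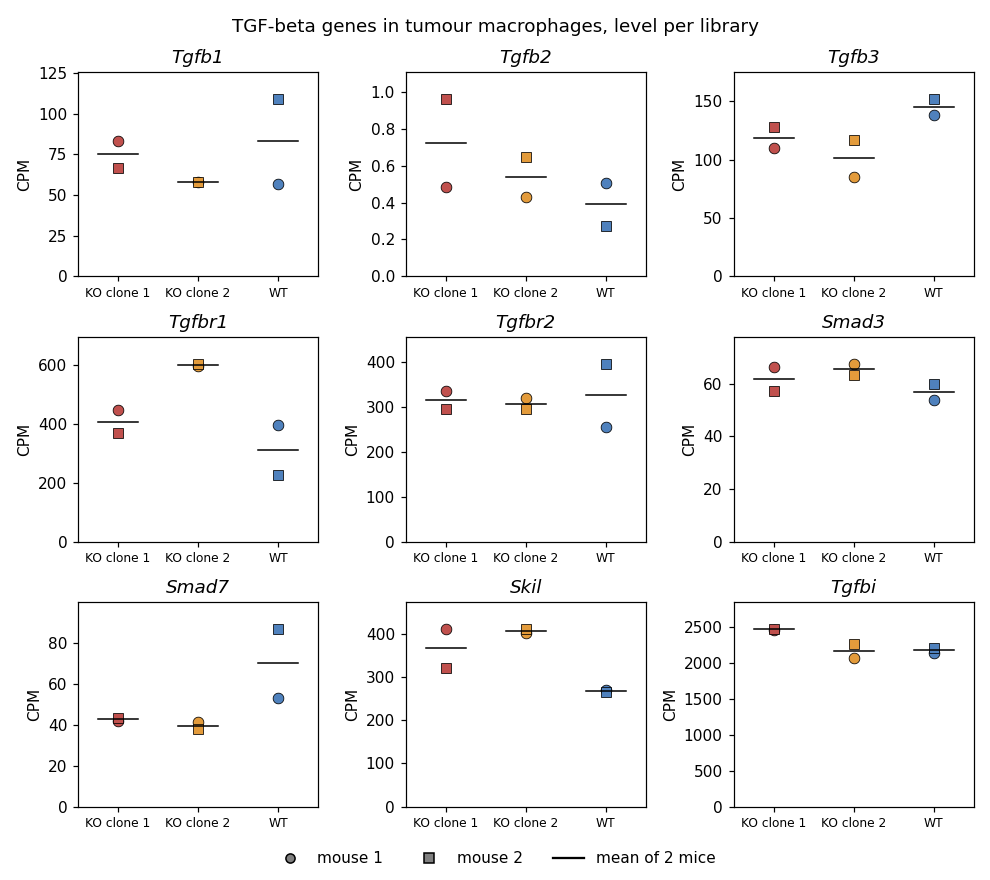
Level in CPM (linear axis from 0) of each of the 9 genes in the libraries of KO clone 1, KO clone 2 and WT, with a circle for mouse 1, a square for mouse 2 and a line at the mean of both mice. The 4 KO points of Smad7 (37.7 to 43.4) lie below both WT points and those of Skil (322 to 412) above them, while for Tgfb1 and Tgfbr2 the WT points lie at both ends of the range.

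Among the ligands, Tgfb1 (chromosome 7, 25687002 to 25705077, plus strand) encodes the form best known from immune cells. It stood at 83.3 and 66.8 CPM in KO clone 1 and at 58.3 and 58.3 CPM in KO clone 2, against 56.9 and 109 CPM in WT mice 1 and 2. The WT libraries were the lowest and the highest of the 6, so all KO values lay between them. Its log2(KO/WT) was -0.32 ± 0.28 SE (adjusted p 0.554). Leaving out WT mouse 2 gave 0.20 ± 0.22, and leaving out WT mouse 1 gave -0.70 ± 0.21, so its sign depended on the WT library used. That last fit had an adjusted p of 0.0347, in a range of 0.0347 to 0.884 over all fits, and called 37.5% of all genes.

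Tgfb3 (chromosome 12, 86056745 to 86079041, minus strand) encodes another of the ligands. It stood at 109.6 and 128 CPM in KO clone 1 and at 85.4 and 117 CPM in KO clone 2, against 138 and 152 CPM in WT. All KO libraries were below both WT libraries. Its log2(KO/WT) was -0.40 ± 0.19 SE (adjusted p 0.390) and, without WT mouse 2, -0.36 ± 0.21. It was negative in all 13 alternative fits and passed in none of them.

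Fibroblast markers differed in both directions. Col3a1, a collagen gene, was lower in every KO library, like Tgfb3. It ran from 1837 to 3215 CPM over the KO libraries, against 3634 and 11320.2 CPM in WT, and took most of the fibroblast marker sum of 2476 to 3952 CPM over the KO libraries, against 4160.4 and 12015 CPM in WT. The other 9 fibroblast markers together ran from 639 to 773 CPM over the KO libraries, against 526 and 695 CPM in WT, and so overlapped. Among them, Dcn (decorin) ran from 286 to 470.4 CPM over the KO libraries, against 255 and 127 CPM in WT, and Thy1 from 7.45 to 15.3 CPM, against 1.69 and 3.71 CPM in WT, so both were higher in every KO library, while Fap was lower in every KO library. The part of fibroblast RNA in the Tgfb3 values was not tested.

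Tgfb2 (chromosome 1, 186622792 to 186705989, minus strand), a ligand known mainly from development, was close to the limit of measurement. It had 20 and 37 counts in KO clone 1 and 17 and 27 counts in KO clone 2, against 23 and 4 counts in WT. These are 0.432 to 0.964 CPM over the KO libraries, against 0.505 and 0.275 CPM in WT, and the groups overlapped. For Tgfb2 the log2(KO/WT) was 0.62 ± 0.55 SE (adjusted p 0.551) and, without WT mouse 2, 0.30 ± 0.63.

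Levels of different genes were compared per kb of annotated exon. Tgfb3 was above Tgfb1 in all 6 libraries, by 1.96, 2.85, 2.19 and 2.98 times in the KO libraries and by 3.62 and 2.07 times in WT, so the ratio overlapped between genotypes. Tgfb2 lay far below both, at 0.0475 to 0.166 CPM per kb, beside 11.3 to 21.7 CPM per kb for Tgfb1. The 250 bases before the start of Tgfb1 (chr7:25686752-25687001, plus strand) and Tgfb2 (chr1:186705990-186706239, minus strand) are shown, 5′ to 3′ from RefSeq on GRCm38.p6, as the start regions of a ligand gene that these macrophages express and of one they barely express. Capitals mark the letters TATAAA and CAGAC (a Smad motif), each searched on both strands.
Tgfb1: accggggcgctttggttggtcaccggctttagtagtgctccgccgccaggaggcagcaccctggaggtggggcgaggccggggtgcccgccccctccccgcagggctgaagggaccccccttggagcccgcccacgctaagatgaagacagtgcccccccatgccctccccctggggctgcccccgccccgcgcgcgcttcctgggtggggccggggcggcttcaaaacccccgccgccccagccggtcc
Tgfb2: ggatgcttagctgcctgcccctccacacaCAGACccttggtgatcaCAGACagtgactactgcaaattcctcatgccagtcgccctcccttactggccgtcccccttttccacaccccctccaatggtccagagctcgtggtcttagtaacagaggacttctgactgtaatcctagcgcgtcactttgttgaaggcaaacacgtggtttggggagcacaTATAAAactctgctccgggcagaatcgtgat
The Tgfb1 window had a GC content of 75.2% and held neither motif, while the Tgfb2 window had 53.6% and held TATAAA at 1 place and CAGAC at 2. Of 32851 windows of this length, 12.4% held TATAAA and 42.2% held CAGAC, and their median GC content was 52.4%. The matches describe letters only.

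**Figure D2:**
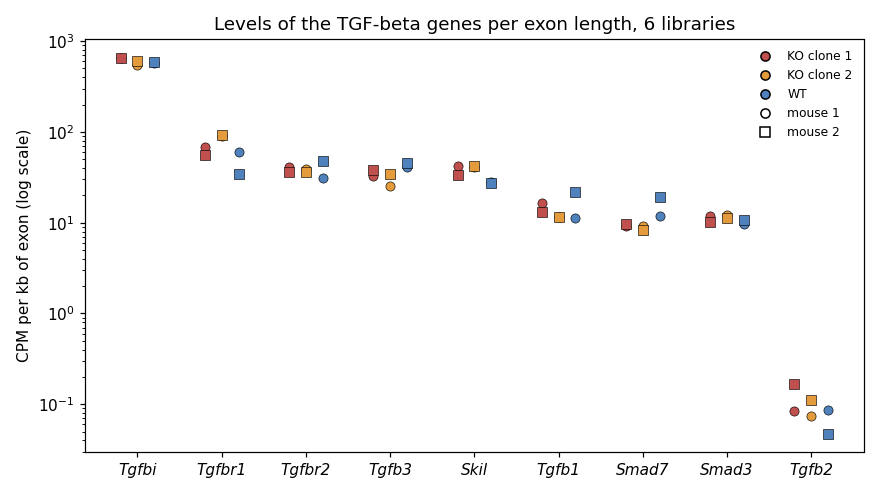
Level of the 9 genes in CPM per kb of exon (log axis) in the 6 libraries, coloured by group and ordered by mean. Tgfbi lies above all others at 548 to 658 and Tgfb2 below all others at 0.0475 to 0.166, with no overlap with the remaining 7 genes.

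Tgfbi was the most abundant of the 9 per kb in every library, with a mean of 603 CPM per kb, above 99.7% of the genes tested. The order of mean levels per kb was then Tgfbr1 (67.2), Tgfbr2 (38.6), Tgfb3 (36.0), Skil (35.8), Tgfb1 (14.3), Smad7 (11.2), Smad3 (11.1) and Tgfb2 (0.0953). Neighbours from Tgfbr1 to Skil held this order in 5, 4 and 3 of the 6 libraries, and their ranges overlapped. Skil was above Tgfb1, and Smad3 above Tgfb2, in all 6, while Tgfb1, Smad7 and Smad3 overlapped.

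Of the receptors, Tgfbr1 (chromosome 4, 47353222 to 47414931, plus strand) encodes the kinase that phosphorylates Smad2 and Smad3. It stood at 445 and 368 CPM in KO clone 1 and at 597 and 603 CPM in KO clone 2, against 395 and 227 CPM in WT. Both clone 2 libraries were above both WT libraries, while clone 1 overlapped with WT. Over both clones its log2(KO/WT) was 0.69 ± 0.31 SE (adjusted p 0.374). Leaving out WT mouse 2 gave 0.32 ± 0.29, and leaving out WT mouse 1 gave 1.16 ± 0.31.

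Tgfbr2 (chromosome 9, 116084293 to 116175360, minus strand) encodes the receptor that binds the ligand first. It stood at 334 and 295 CPM in KO clone 1 and at 319 and 294 CPM in KO clone 2, against 255 and 396 CPM in WT. As for Tgfb1, the KO values all lay between the WT values. Its log2(KO/WT) was -0.07 ± 0.21 SE (adjusted p 0.867) and, without WT mouse 2, 0.26 ± 0.15. Per kb, Tgfbr1 was above Tgfbr2 by 1.67, 1.56, 2.34 and 2.57 times in the KO libraries and by 1.94 times in WT mouse 1, while the ratio in WT mouse 2 was 0.719.

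Smad3 (chromosome 9, 63646767 to 63757994, minus strand) carries the signal into the nucleus. It stood at 66.3 and 57.0 CPM in KO clone 1 and at 67.6 and 63.2 CPM in KO clone 2, against 53.8 and 59.8 CPM in WT. The groups overlapped, and the highest library was 1.26 times the lowest. The log2(KO/WT) of Smad3 was 0.16 ± 0.16 SE (adjusted p 0.587) and, without WT mouse 2, 0.22 ± 0.15.

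Smad7 (chromosome 18, 75367529 to 75395935, plus strand) binds the type I receptor and blocks Smad phosphorylation. It stood at 41.8 and 43.4 CPM in KO clone 1 and at 41.2 and 37.7 CPM in KO clone 2, against 53.1 and 86.7 CPM in WT. The KO values were close together, and WT mouse 2 was 1.63 times WT mouse 1. Its log2(KO/WT) of -0.77 ± 0.21 SE had the lowest adjusted p of the 9 genes, 0.255. Leaving out WT mouse 2 gave -0.40 ± 0.14, and leaving out WT mouse 1 gave -1.07 ± 0.13. It was negative in all 13 alternatives.

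Skil (chromosome 3, 31095058 to 31122577, plus strand) encodes SnoN, which represses Smad target genes and is degraded and then made again when the pathway is active. It stood at 411 and 322 CPM in KO clone 1 and at 402 and 412 CPM in KO clone 2, against 270.4 and 266 CPM in WT. The WT libraries were nearly equal, at a ratio of 0.984, and every KO library was above them. Its log2(KO/WT) was 0.53 ± 0.18 SE (adjusted p 0.319). Leaving out WT mouse 2 gave 0.49 ± 0.19, leaving out WT mouse 1 gave 0.55 ± 0.19, and all 13 alternatives lay between 0.48 and 0.61, of which none passed.

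Markers of monocytes and of T and NK cells differed between the same libraries as Skil and Smad7. The 6 monocyte markers together ran from 475 to 908 CPM over the KO libraries, against 294 and 73.2 CPM in WT. Most of this sum was Ccr2, at 280 to 717 CPM over the KO libraries, against 277 and 40.6 CPM in WT. Ly6c2 ran from 85.5 to 100 CPM over the KO libraries, against 2.72 and 4.27 CPM in WT. The 10 T and NK cell markers together ran from 49.0 to 88.1 CPM over the KO libraries, against 12.6 and 22.1 CPM in WT, with the NK receptor gene Ncr1 at 0 in WT mouse 2. For KO versus WT, edgeR called 1 of 6 monocyte and 2 of 10 T and NK cell markers higher, beside 0.129% of all genes. DESeq2 called 5 and 7 of them higher, beside 3.21% of all genes in either direction. The part of these cell types in the Skil and Smad7 values was not tested.

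Tgfbi (chromosome 13, 56609523 to 56639562, plus strand) encodes a secreted matrix protein induced by TGF-beta. It stood at 2464 and 2482 CPM in KO clone 1 and at 2067 and 2268 CPM in KO clone 2, against 2144 and 2213 CPM in WT. The ratio of the highest to the lowest library was 1.20, the smallest such ratio of the 9 genes, and the groups overlapped. For Tgfbi the log2(KO/WT) was 0.09 ± 0.19 SE (adjusted p 0.800) and, without WT mouse 2, 0.09 ± 0.19.

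**Figure D3:**
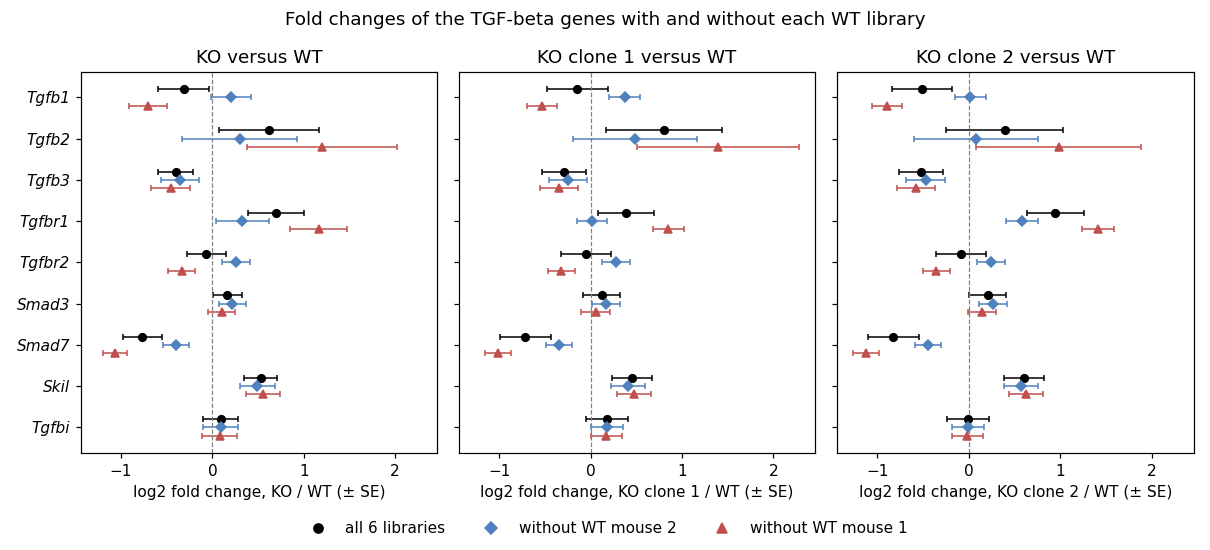
Log2 fold change (± SE) of the 9 genes for KO over WT, KO clone 1 over WT and KO clone 2 over WT, with all 6 libraries (circles), without WT mouse 2 (diamonds) and without WT mouse 1 (triangles). For KO over WT, Skil lies at 0.53, 0.49 and 0.55 in these fits, whereas Tgfb1 lies at -0.32, 0.20 and -0.70.

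Each clone was then set against the same WT libraries, so these comparisons share their controls. None of the 9 genes passed in either by edgeR or DESeq2, beside 0.00643% of all genes in each by edgeR and 1.74% (clone 1) and 2.99% (clone 2) by DESeq2. At an unadjusted p under 0.05 there was 1 of 9 in clone 1 (Smad7), beside 7.1% of all genes, and 3 of 9 in clone 2 (Tgfbr1, Smad7 and Skil), beside 11.3%. Clone 1 and WT libraries did not overlap for 4 of 9 genes (44.4%), beside 32.5% of all genes, with Tgfbi and Skil higher beside 17.4% and Tgfb3 and Smad7 lower beside 15.1%. Clone 2 and WT libraries did not overlap for 5 of 9 (55.6%), beside 51.9%, with Tgfbr1, Smad3 and Skil higher beside 26.5% and Tgfb3 and Smad7 lower beside 25.3%.

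Smad7 had a log2 ratio to WT of -0.71 ± 0.28 SE in clone 1 and -0.82 ± 0.28 in clone 2. Skil had 0.45 ± 0.22 in clone 1 and 0.60 ± 0.22 in clone 2. Tgfb3 had -0.29 ± 0.24 in clone 1 and -0.52 ± 0.24 in clone 2. Without WT mouse 2, Smad7 had -0.35 ± 0.14 in clone 1 and -0.45 ± 0.14 in clone 2, Skil had 0.41 ± 0.18 in clone 1 and 0.57 ± 0.19 in clone 2, and Tgfb3 had -0.25 ± 0.21 in clone 1 and -0.47 ± 0.21 in clone 2. Tgfbr1 had 0.38 ± 0.31 in clone 1 (adjusted p 0.731) and 0.95 ± 0.31 in clone 2 (adjusted p 0.388), and without WT mouse 2 it had 0.013 ± 0.17 in clone 1 and 0.58 ± 0.17 in clone 2. Without WT mouse 2 none of the 9 passed for KO, clone 1 or clone 2, beside 0.174%, 0.361% and 1.16% of all genes. Leaving out WT mouse 1 instead gave 3, 2 and 4 of 9, beside 37.5%, 34.5% and 40.2% of all genes.

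The clones were also compared with each other, to ask whether their macrophages differed, in a fit whose spread includes the WT libraries. None of the 9 genes passed by edgeR, beside 0% of all genes, and 0 had an unadjusted p under 0.05, beside 3.23%. DESeq2 called 0 of the 9, beside 0.752% of all genes. Tgfbr1 averaged 599.9 ± 4.56 CPM in clone 2 and 406 ± 54.3 CPM in clone 1 (SD, n = 2 each), a log2 ratio of 0.56 ± 0.31 SE. Tgfb1 averaged 58.3 ± 0.0153 CPM in clone 2 and 75.1 ± 11.7 CPM in clone 1, at -0.37 ± 0.33. The clones' libraries did not overlap for 4 of the 9 (44.4%), beside 44.5% of all genes, with Tgfbr1 higher in clone 2 beside 21.8%, and Tgfb1, Tgfbi and Smad7 lower beside 22.7%.

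For the genes of highest level per kb, the genes most alike in pattern were sought by Pearson r over the 6 libraries among 10589 genes. Those closest to Tgfbr1 were Smad4, the shared partner of Smad2 and Smad3 (0.997), Trps1 (0.996) and Erp44 (0.991). Smad4 stood at 73.5, 68.8, 86.0 and 86.3 CPM in the KO libraries, against 71.7 and 57.0 CPM in WT, which is the same order of libraries as for Tgfbr1. Without WT mouse 2 its r was 0.995 over 5 libraries. Those closest to Tgfbi were Loxl4, a lysyl oxidase (0.971), Fam210b (0.944) and Uxs1 (0.943). All points share library, depth and scaling. The genes were picked for the highest r among 10589, so a high r and a matching order follow from that choice and test no link.

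The wider pathway was described through 5 further lists of 64 genes, of which 63 were tested. With all libraries in the fit, none passed between KO and WT by edgeR, where the smallest adjusted p was 0.205. At an unadjusted p under 0.05, 3 were higher with KO and 5 lower, together 12.7%, beside 13.6% of all genes. Of the 63, 12 lay higher in every KO library than in WT and 4 lower, beside 12.9% and 10.7% of all genes. Clone 2 and WT libraries did not overlap for 20 higher and 12 lower, beside 26.5% and 25.3% of all genes. For KO versus WT, DESeq2 called only Thbs1 of these genes. The median log2(KO/WT) was 0.04, and 33 of 63 were positive, beside 50.2% of all genes. For KO versus WT with WT mouse 2 left out, the median was 0.05 and 34 of 64 were positive.

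Of the 11 genes that store and activate TGF-beta, 5 were positive and 6 negative, with a median log2(KO/WT) of -0.05 that became 0.27 without WT mouse 2, with 6 positive and 5 negative. Thbs1 encodes thrombospondin 1, which can release TGF-beta from its latent complex. It stood at 459 and 449 CPM in KO clone 1 and at 399 and 561 CPM in KO clone 2, against 142 and 267 CPM in WT. Every KO library was above both WT libraries, at a log2(KO/WT) of 1.19 ± 0.29 SE (adjusted p 0.205). For Thbs1 without WT mouse 2 it was 1.70 ± 0.23, and without WT mouse 1 it was 0.82 ± 0.22. The latent binding protein genes Ltbp3 (-1.52 ± 0.54 SE) and Ltbp4 (-1.47 ± 0.57) and Furin (-0.96 ± 0.44), a protease that cleaves the TGF-beta precursor, had negative values and overlapped between the 4 KO libraries and WT. In WT mouse 2 they stood at 134, 262 and 578 CPM, the highest of the 6 libraries, while WT mouse 1 had 30.8, 61.6 and 225 CPM, within the range of the KO libraries. Without WT mouse 2 their log2(KO/WT) was -0.13 ± 0.40, -0.11 ± 0.50 and -0.15 ± 0.42. In clone 2 alone, however, they lay below both WT libraries, at 19.2 and 20.7 CPM for Ltbp3, 34.8 and 36.6 CPM for Ltbp4, and 132 and 154 CPM for Furin. DESeq2 called Ltbp3 and Ltbp4 lower in clone 2 than in WT. With all libraries, edgeR gave log2 ratios of -2.04 ± 0.62 SE (adjusted p 0.360) and -2.18 ± 0.62 (adjusted p 0.325). Without WT mouse 2 these ratios were -0.65 ± 0.18 and -0.81 ± 0.16. Nrros, which holds latent TGF-beta on myeloid cells, ran from 161 to 176 CPM over the KO libraries, against 123 and 142 CPM in WT, at 0.32 ± 0.16, and at 0.40 ± 0.14 without WT mouse 2.

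Of 9 tested co-receptors and related receptors, 4 were positive and 5 negative, with a median log2(KO/WT) of -0.15, and 0 had an unadjusted p under 0.05. The median without WT mouse 2 was 0.23, with 8 of 10 tested positive, so these tallies rest on that library. Tgfbr3 (betaglycan), which presents ligand to Tgfbr2, stood at 35.6 and 36.4 CPM in KO clone 1 and at 53.9 and 62.3 CPM in KO clone 2, against 56.6 and 60.5 CPM in WT. Clone 1 was below both other groups, and the log2 ratio of clone 2 to clone 1 was 0.69 ± 0.20 SE (adjusted p 0.946). Acvr2a, an activin receptor gene, had a log2(KO/WT) of 0.50 ± 0.22, and of 0.22 ± 0.19 without WT mouse 2.

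Of 21 further Smads and regulators, 14 were positive and 7 negative, where 50.2% of all genes were positive. Without WT mouse 2 the numbers were 15 and 6, where 47.8% of all genes were positive. Tgif1, a repressor that joins Smads on DNA, stood at 83.0, 76.3, 67.2 and 76.1 CPM in the KO libraries, against 53.5 and 51.0 CPM in WT, at 0.53 ± 0.16 SE (adjusted p 0.286). Smad6, an inhibitor that acts mainly in the BMP branch, stood at 5.26, 4.74, 4.02 and 4.35 CPM in the KO libraries, against 6.74 and 8.05 CPM in WT, at -0.68 ± 0.22 (adjusted p 0.307). KO and WT libraries did not overlap for either. Tgif1 without WT mouse 2 had 0.48 ± 0.16 and Smad6 had -0.58 ± 0.24.

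Of 15 further target genes, 5 were positive and 10 negative, with a median log2(KO/WT) of -0.26. With WT mouse 2 left out, 4 were positive and 11 negative, with a median of -0.16. Bhlhe40, a transcription factor gene, ran from 77.8 to 103 CPM over the KO libraries, against 99.6 and 208 CPM in WT, at -0.80 ± 0.28 SE, and at -0.20 ± 0.18 without WT mouse 2. Id3, also a BMP target, ran from 3.82 to 6.54 CPM over the KO libraries, against 6.74 and 10.7 CPM in WT, at -0.84 ± 0.31, and at -0.50 ± 0.33 without WT mouse 2. The target genes thus had values in both directions, with a smallest adjusted p of 0.325.

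**Figure D4:**
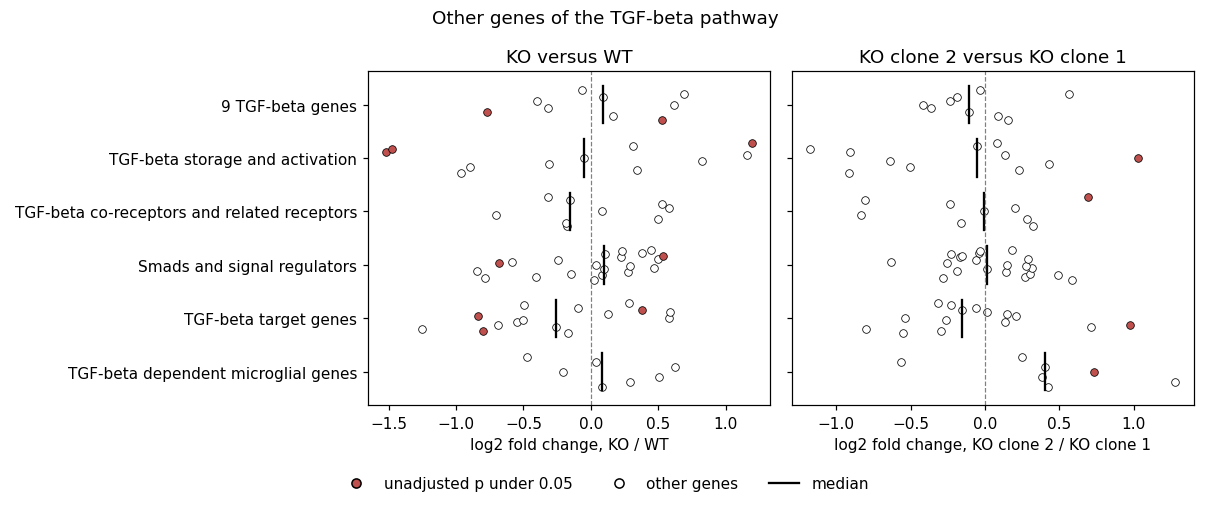
Log2 fold change of each tested gene of the 9 and of 5 further pathway lists, for KO over WT and for clone 2 over clone 1, with a line at each list's median. Red points have an unadjusted p under 0.05. For KO over WT the points of each list lie on both sides of 0.

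Markers of other cell types complete the picture of the libraries. The 8 macrophage markers together ran from 4247 to 4832 CPM over the KO libraries, against 3921 and 4976 CPM in WT, and overlapped. Fcgr1 ran from 444 to 483 CPM over the KO libraries, against 267 and 284 CPM in WT. Adgre1 ran from 767 to 966 CPM, against 667 and 528 CPM in WT. These 2 of the 8 were higher in every KO library, beside 12.9% of all genes, and 0 were lower, beside 10.7%. By log2(KO/WT), 4 of the 8 were positive and 4 negative. For KO versus WT, DESeq2 called only Fcgr1 of the 8, beside 3.21% of all genes, and edgeR called 0. Higher in every KO library were the sums of 6 endothelial markers (48.0 to 61.6 CPM, against 24.0 and 29.0 CPM in WT), 5 neutrophil markers (46.1 to 64.0 CPM, against 26.6 and 26.0 CPM) and 6 dendritic cell markers (22.0 to 37.0 CPM, against 16.2 and 15.0 CPM). Most of the endothelial sum was Pecam1, at 33.9 to 42.9 CPM over the KO libraries, against 13.0 and 14.9 CPM in WT. Cdh5, Kdr, Tek and Egfl7 overlapped. Emcn was higher in every KO library but close to 0, at 0.0727 to 0.553 CPM, against 0.0439 and 0 CPM in WT. Nearly all of the neutrophil sum was Csf3r, at 44.8 to 61.6 CPM over the KO libraries, against 26.3 and 25.9 CPM in WT. The largest dendritic cell marker in the KO libraries was Xcr1, at 10.5 to 21.6 CPM, against 8.81 and 4.82 CPM in WT. Of these 6 markers 4 were higher in every KO library, while Clec9a and Siglech overlapped. The endothelial marker Emcn and the neutrophil markers S100a9, Ly6g and Retnlg were at 0 in WT mouse 2 only. The 5 epithelial or tumour cell markers together ran from 11.1 to 12.8 CPM over the KO libraries, against 15.6 and 44.1 CPM in WT, nearly all of it Cdh1. Epcam, Krt8, Krt18 and Krt20 stayed at or below 0.688 CPM in every library. The part of these cells in the values of the 9 genes was not tested.

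**Figure D5:**
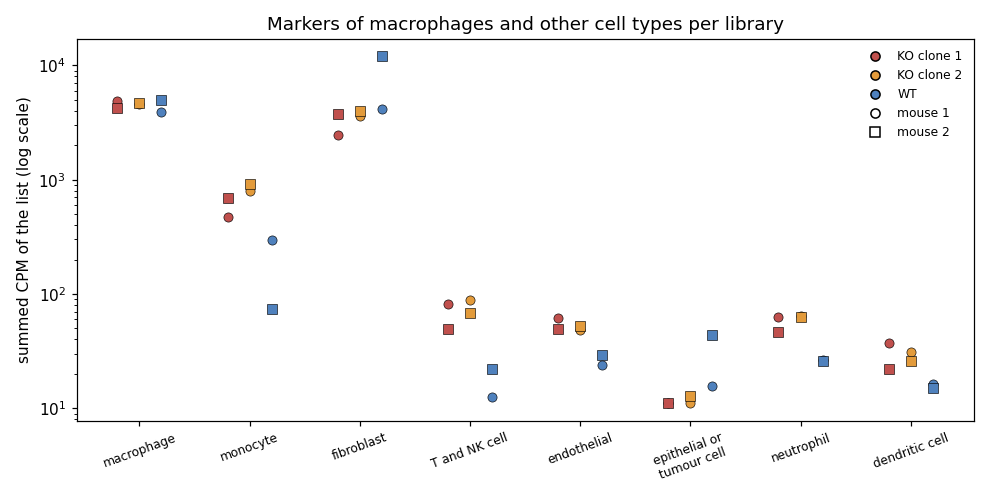
Summed CPM of each marker list (log axis) in the 6 libraries, coloured by group. The macrophage list overlaps between groups at 3921 to 4976, the monocyte, T and NK cell, endothelial, neutrophil and dendritic cell lists are higher in all 4 KO libraries, and the fibroblast and epithelial lists are highest in WT mouse 2.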

How the data were processed

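Per the labels' protocols, macrophages were sorted by FACS, RNA was extracted with a PureLink kit, and libraries were made with TruSeq after ribosomal RNA depletion. The authors deposited 1 table of estimated counts, whole numbers for each symbol with no scaling to depth. The submitters' processing notes name Salmon 0.7.2 and mm10 without their role. The transcript set was not given in the sources used here, nor was the use of strand, so reads from antisense transcripts that overlap exons of Tgfb2 and Tgfb3 in GENCODE M21 cannot be told apart from theirs.

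CPM was computed from the deposited counts on TMM-scaled library sizes. Exon unions and gene positions came from GENCODE M21 (GRCm38), and all 9 genes are protein-coding there. An exon union can overstate the transcript length in use. Testing used edgeR 4.0.16 in R 4.3.3 (quasi-likelihood F test) after filterByExpr with a minimum count of 10 and a minimum total of 15. KO versus WT used 2 genotype levels, and the clone comparisons used 3 groups with 1 estimate of spread. Benjamini-Hochberg adjustment ran across the 15560 tested genes. The SE is the absolute log2 fold change over the square root of F. Replicates are separate mice, but mice that share a tumour clone do not replicate the knockout. Chi-square over degrees of freedom between replicate libraries was 80.5 or more, so none were copies. The fits were also run on simulated counts, to check that the code finds large added differences. The simulated libraries shared the same base composition, without a library like WT mouse 2. This check therefore does not show which differences in the 9 genes could have been found.

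Alternatives were RLE factors, DESeq2 1.42.0, no low-count filter, a filter of 5 CPM in 2 or more libraries, a block for mouse number, each library left out, the mean of the clones and, chosen after seeing the data, Rn45s left out and, for genes of the wider pathway, each WT library left out. The 9 genes and all lists were chosen with earlier results of these data known. All 9 genes are named, and from each other pathway list up to 4 genes per direction and comparison with the smallest p could be. The 3 genes closest in log2(CPM + 1) were named for each of the 2 genes with the highest level per kb. Col3a1 and other single markers were picked after their values were seen. The result of 1 target gene is not reported here.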

Additional observations from a re-analysis of the deposited data

Results flagged for a closer look

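For Skil, 1 of the 4 KO libraries lay far from the others. Clone 1 mouse 2 stood at 322 CPM, while the other KO libraries stood at 411, 402 and 412 CPM. Its gap to the nearest of them was 0.892 of the whole range, past Dixon's 95% critical value for 4 samples. All 9 genes were checked in this way, and chance alone marks about 1 in 20 such groups. Without this library the log2(KO/WT) of Skil was 0.61.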

How the results depend on the processing

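Of the 9 genes, 0 passed under every alternative except leaving out WT mouse 1. With 1 library left out, the counts ran from 0 to 3 for KO versus WT, 0 to 2 for clone 1 and 0 to 4 for clone 2. The genes called without WT mouse 1 were Tgfb1, Tgfbr1 and Smad7 for KO versus WT, Tgfbr1 and Smad7 for clone 1, and Tgfb1, Tgfbr1, Smad7 and Skil for clone 2. Over all genes, 21 were called for KO versus WT, 1 for each clone against WT and 0 between clones. DESeq2 called 499, 271, 465 and 117, and no low-count filter gave 111, 123, 229 and 53. The stricter filter gave 0 for each clone against WT, the mean of the clones gave 1 for KO versus WT, and for clone 2 RLE gave 9 and leaving out Rn45s gave 8. With 1 library left out, these counts ran from 1 to 6020, 0 to 5535, 0 to 6445 and 0 to 87. The highest against WT were all without WT mouse 1. With a WT library left out, the lone WT library is assumed to vary like the other groups. The causes were not tested.

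Some log2 values changed sign with 1 library left out. For KO versus WT, Tgfb1 ran from -0.70 to 0.20 and Tgfbr2 from -0.34 to 0.26. For clone 1, Tgfb1 ran from -0.53 to 0.37 and Tgfbr2 from -0.32 to 0.27. For clone 2, Tgfb1 ran from -0.89 to 0.013, Tgfbr2 from -0.35 to 0.24 and Tgfbi from -0.067 to 0.061 (0.018 with no low-count filter). Between clones, Tgfbr2 ran from -0.12 to 0.057, Tgfb2 from -0.83 to 0.16, Smad3 from -0.015 to 0.20 and Skil from -0.011 to 0.34. Tgfb2 gave no value under the stricter filter, and its 4 to 37 counts limit it by depth.

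Deviations of same-numbered libraries from their group means correlated at -0.135 (clone 1 and WT), 0.05 (clone 2 and WT) and 0.197 (both clones). With 2 libraries per group, these values cannot decide whether the mouse numbers pair the libraries. With the replicate number as a block, 15 genes were called for KO versus WT, 0 for each clone against WT and 0 between clones, with 0 of the 9 genes among them.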

Other observations

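Genes that depend on TGF-beta in brain microglia were measured as a list of 7. For clone 2 over clone 1, 6 of the 7 log2 ratios were positive, beside 47.0% of all genes, with a median of 0.40 beside -0.02 over all genes. The negative ratio was that of Sall1 (-0.56 ± 0.53 SE), at 2.42 and 2.36 CPM in clone 2 and 3.83 and 3.23 CPM in clone 1. With all libraries 0 passed by edgeR or DESeq2. At an unadjusted p under 0.05 there was 1 of the 7, beside 3.23% of all genes. It was Olfml3, a secreted glycoprotein gene, at 169.6 and 174 CPM in clone 2 and 104 and 103 CPM in clone 1 (0.73 ± 0.26 SE, adjusted p 1). The purinergic receptor gene P2ry12 stood at 57.3 and 46.8 CPM in clone 2 and 39.6 and 39.1 CPM in clone 1. Gpr34, a lysophospholipid receptor gene, stood at 25.1 and 23.3 CPM in clone 2 and 9.65 and 10.3 CPM in clone 1, a log2 ratio of 1.28 ± 1.05 SE (adjusted p 1). With either WT library left out, the clone ratio of Gpr34 stayed at 1.28 ± 0.14, where the KO libraries alone supply the SE. The WT libraries differed widely for both, at 51.7 and 7.02 CPM for P2ry12 and 26.3 and 1.17 CPM for Gpr34. The median of the list for KO versus WT was 0.09. Leaving out WT mouse 2 gave -0.16, and leaving out WT mouse 1 gave 1.19.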
